A study of Mus musculus with 16 samples.

Results

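Calcitonin and the secretory granule genes that parafollicular C cells share with other neuroendocrine cells were followed across whole thyroid tissue of mice on a high-fat food with sucrose in the drinking water (HF+SD) or on a control diet (CD). The 9 genes, Calca, Calcb, Chga, Chgb, Scg2, Scg3, Ret, Pcsk1 and Pcsk2, were taken by symbol from the 21640 genes of the count table, and all 9 were measured in all 16 libraries and passed the low-count filter at both time points. Each library is the thyroid of 1 wild-type male C57Bl/6J mouse, and none of the mice carried an engineered allele or received a drug. Diets began at 8 weeks of age and lasted 3 or 6 weeks, with 4 deposited mice per diet at each time. On the CD were M53, M54, M55 and M96 at 3 weeks and M22, M43, M45 and M48 at 6 weeks. The HF+SD mice were M7, M19y, M20y and M31 at 3 weeks and M5, M18, M34 and M35 at 6 weeks. The number that opens each library name differs between the 3-week and the 6-week mice. Time and that number cannot be told apart, so levels were compared only within a time point.

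C cells are scattered between thyroid follicles, arise apart from the thyrocytes that make thyroid hormone, and release calcitonin, a peptide that lowers blood calcium. The hormone is cut from a precursor by prohormone convertases inside dense-core granules, whose matrix is built from granins, and the granules empty when calcium enters the cell. C cells also carry the receptor tyrosine kinase RET, which signals with a GFRA co-receptor and is the oncogene of medullary thyroid carcinoma, the tumour of this cell type. A library of a whole gland holds the RNA of every cell in it, and a level is a share of that library. The share of a cell type that stays the same falls when the rest of the gland grows. Fewer cells of a type, less RNA per cell and unchanged cells in a larger gland therefore cannot be told apart in any value given here. The paper reports progressive goiter on the HF+SD. The part of gland growth in the levels was not tested.

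Library totals ran from 30025256 to 48508653 counts. Levels are given as CPM, counts scaled to library sizes that TMM factors adjust, a fold change is HF+SD against CD on the log2 scale with its standard error (SE), and adjusted p is from edgeR's quasi-likelihood test with Benjamini-Hochberg adjustment over all genes tested. Calca was between the 4th and the 30th most counted gene of every library, at 0.223% to 0.957% of all counts, and Gfra4, the RET co-receptor typical of C cells, was measured in every library at 16.6 to 43.6 CPM. Libraries also held RNA of neighbouring tissue. Skeletal muscle genes took 3.04% of the counts in M43, 12.9% in M45 and 9.34% in M48, whereas M22 had 0.0875% and no HF+SD mouse of that time had over 0.366%. The parathyroid list (6 genes, among them Pth and Gcm2) summed to between 2216 and 14807 CPM in CD mice and between 474 and 1995 CPM in HF+SD mice at 6 weeks, with no overlap, and to between 53.7 and 3024 and between 46.9 and 1143 CPM at 3 weeks, with overlap.

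Upstream of their RefSeq start sites (GRCm38.p6), some of these genes carry the cyclic AMP response element TGACGTCA, a motif bound by CREB-family factors. Promoters of 300 bases were at hand for 7 of the 9 genes, all but Calcb and Ret. TGACGTCA, which reads the same on both strands, was found in those of Chgb, Scg2 and Pcsk1, 3 of 7, and in 588 of 32851 promoters (1.79%). The shorter letters TGACG, searched on both strands and contained in the longer motif, were found in 7 of 7 and in 6837 of 32851 (20.81%). A stretch of 100 bases follows for these 3 genes, to show where the motif lies, and for Calca, which has only the shorter letters, as have Chga, Scg3 and Pcsk2. Capitals mark TGACGTCA, or TGACG for Calca, and each stretch runs from 110 to 11 bases before the start site.
Chgb (chr2:132781532-132781631, plus strand): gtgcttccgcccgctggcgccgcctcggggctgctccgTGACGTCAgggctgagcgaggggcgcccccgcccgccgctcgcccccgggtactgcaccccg
Scg2 (chr1:79440037-79440136, minus strand): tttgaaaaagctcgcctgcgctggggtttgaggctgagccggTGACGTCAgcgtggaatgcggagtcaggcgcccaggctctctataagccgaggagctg
Pcsk1 (chr13:75089747-75089846, plus strand): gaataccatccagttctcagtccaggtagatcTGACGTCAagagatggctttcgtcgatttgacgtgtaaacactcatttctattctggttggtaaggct
Calca (chr7:114636368-114636467, minus strand): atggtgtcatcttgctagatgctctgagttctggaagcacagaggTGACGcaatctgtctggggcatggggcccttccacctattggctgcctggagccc

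After 6 weeks, 5 of the 9 genes were lower on the HF+SD and passed the test (Calca, Calcb, Scg3, Pcsk1 and Pcsk2) and 0 were higher, also by DESeq2 (1, Ret, had a higher level at an unadjusted p under 0.05). Of all 18249 genes tested, 9.55% passed lower and 12.0% higher. After 3 weeks, 6 were lower (Calca, Chgb, Scg2, Scg3, Pcsk1 and Pcsk2) and 1, Ret, was higher, against 5.78% and 9.07% of 17238 genes. The 5 genes of 6 weeks, and the 6 genes and Ret of 3 weeks, had no overlap between diets, as had 9.97% of all genes in the lower and 13.8% in the higher direction at 6 weeks, and 10.5% and 13.1% at 3 weeks. The median log2 fold change of the 9 genes was -0.85 at 6 weeks and -0.58 at 3 weeks, while that of all genes was -0.01 at both.

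**Figure D1:**
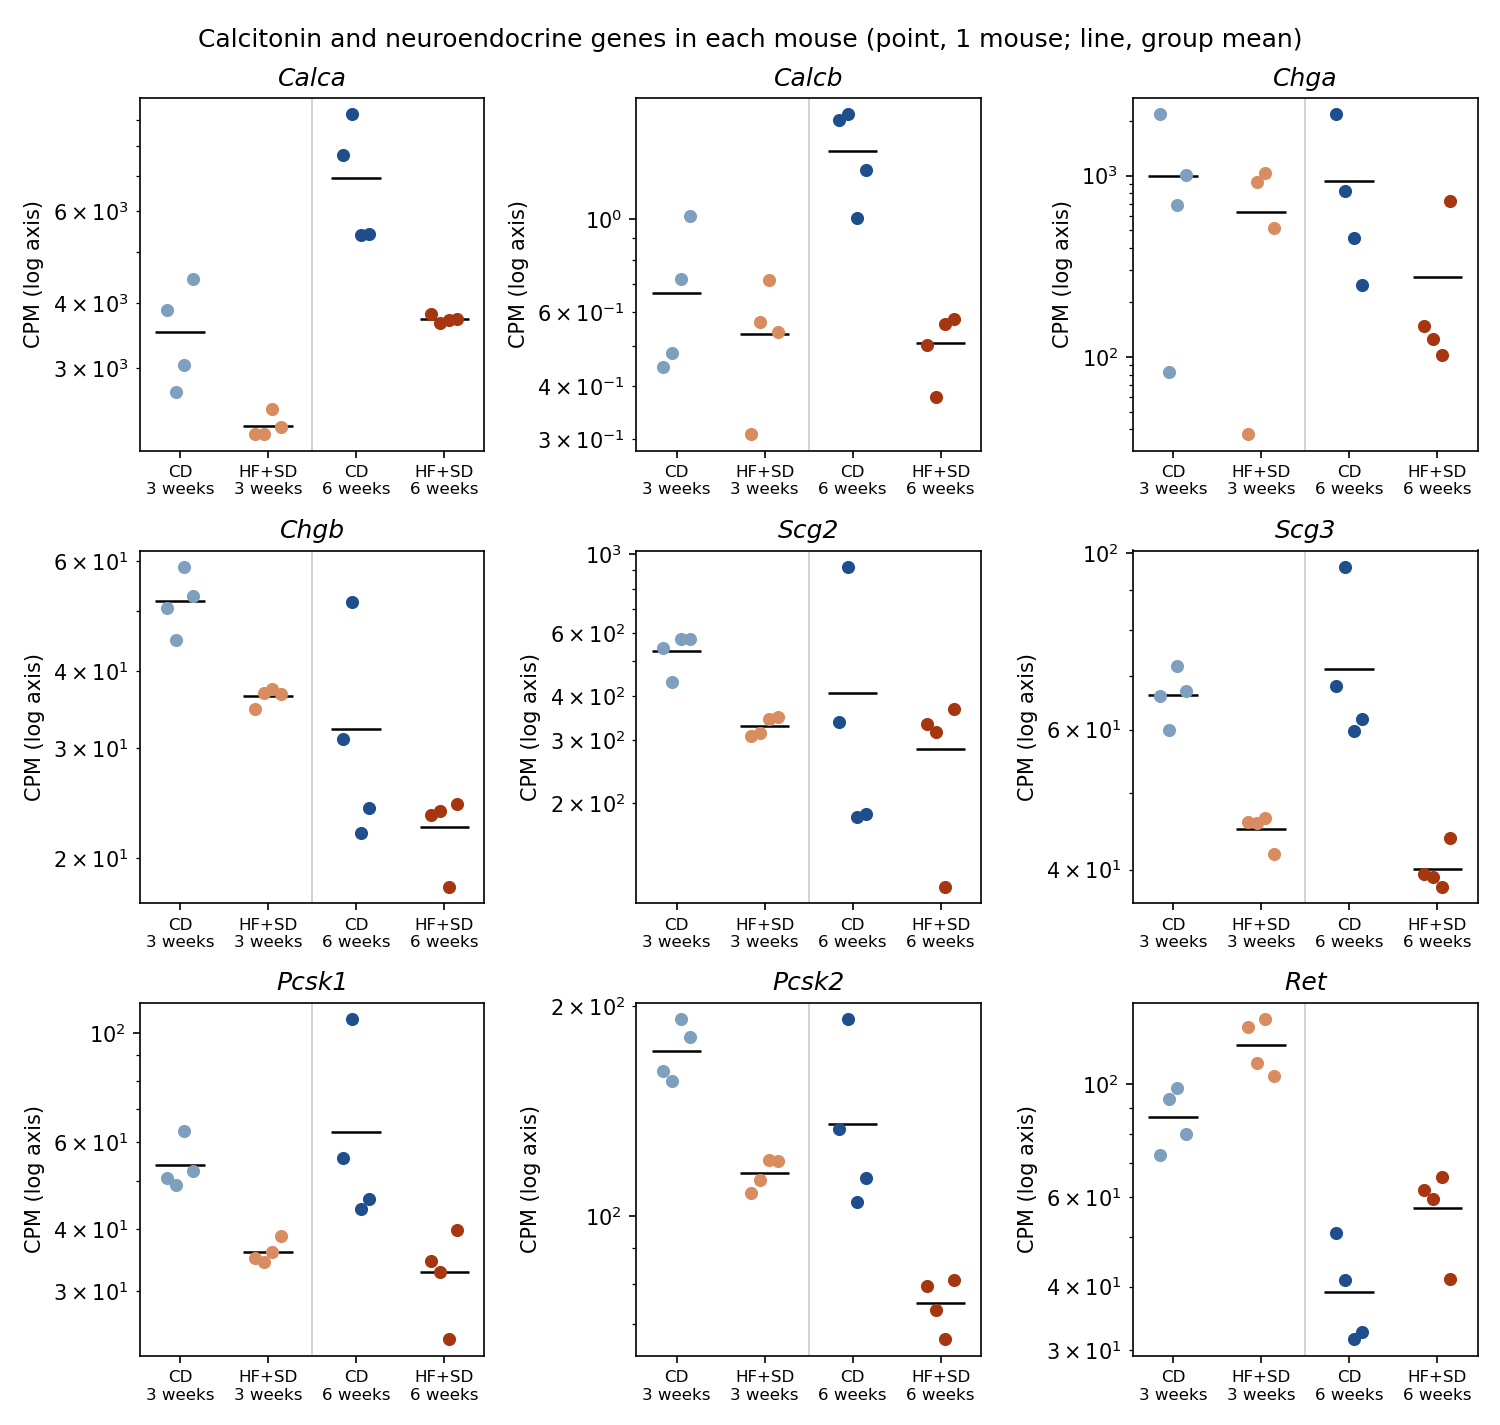
CPM of the 9 genes in each mouse (log axis), with a line at the group mean of 4 mice. Calca of the HF+SD mice lies below that of every CD mouse at both times, Chga has the widest spread within groups, and Ret is the gene whose HF+SD mean is higher under TMM (not with thyrocyte genes as a geometric mean scale).

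Calca (ENSMUSG00000030669.14, GRCm38 chromosome 7, 114631478 to 114636357, minus strand) encodes calcitonin and, by alternative splicing, the neuropeptide CGRP; a count per gene does not separate the transcripts. After 6 weeks, M22, M43, M45 and M48 on the CD held 7712, 9227, 5404 and 5434 CPM. M5, M18, M34 and M35 on the HF+SD held 3727, 3802, 3668 and 3705 CPM. Every HF+SD mouse was below every CD mouse, and the HF+SD mice were nearly alike, with a coefficient of variation of 1.53% against 26.9% on the CD. M45 and M48, the lowest on the CD, also had the most muscle counts (12.9% and 9.34%). M43, the highest, had 3.04% and M22 had 0.0875%. The part of muscle in the CD spread was not tested. The mean was 6944 ± 1867 CPM on the CD and 3725 ± 56.9 CPM on the HF+SD (SD, 4 mice per diet), and the log2 fold change was -0.90 (SE 0.23, adjusted p = 0.0236).

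After 3 weeks, Calca had 3880, 2697, 3044 and 4444 CPM in M53, M54, M55 and M96 on the CD. On the HF+SD it had 2314, 2238, 2235 and 2506 CPM in M7, M19y, M20y and M31. The diets again did not overlap, and the HF+SD mice varied by 5.47% against 22.6%. The log2 fold change was -0.60 (SE 0.15, adjusted p = 0.0254). Leaving out 1 mouse ended the call at 6 weeks for any of the 4 HF+SD mice (adjusted p up to 0.0756) and at 3 weeks for M53 or any HF+SD mouse (up to 0.0780). The exact two-sided permutation test gave 0.0286 at both times, the smallest p that 4 mice against 4 allow.

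Calcb (ENSMUSG00000030666.12, GRCm38 chromosome 7, 114718643 to 114723365, plus strand), which encodes beta-CGRP, lies near Calca and was counted at 12 to 78 reads per library, or 1.03 to 2.87 for every 10000 Calca reads. The coding sequences of Calca-201 and Calcb-201, the transcripts that aligned best, were 82.7% identical over 393 aligned positions, with a longest shared run of 60 bases. The pair of stretches that follows shows the 150 bases, the length of 1 sequencing read, in which they were most alike, with 10 differing bases in capitals, from the GENCODE transcripts on GRCm38.
Calca-201, coding bases 205 to 354 (minus strand): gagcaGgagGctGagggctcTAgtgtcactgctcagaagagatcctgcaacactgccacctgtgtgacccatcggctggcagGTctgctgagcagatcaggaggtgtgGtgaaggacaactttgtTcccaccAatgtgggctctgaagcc
Calcb-201, coding bases 208 to 357 (plus strand): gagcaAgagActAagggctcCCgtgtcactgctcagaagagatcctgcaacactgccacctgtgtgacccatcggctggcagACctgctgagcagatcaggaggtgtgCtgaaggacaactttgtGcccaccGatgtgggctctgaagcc
The Calca stretch is that of Calca-201, with 384 coding bases. Calca-202 and Calca-207, with 408 coding bases each, were not searched for it. The share of Calca reads that came from each transcript is not known. Whether reads of the abundant neighbour were counted on Calcb was not tested, and the low counts of Calcb are uncertain to that extent. After 6 weeks, Calcb had 1.72, 1.78, 1.01 and 1.31 CPM on the CD and 0.580, 0.502, 0.378 and 0.564 CPM on the HF+SD (mice in the order given above). The diets did not overlap, and the log2 fold change was -1.52 (SE 0.27, adjusted p = 0.00504). After 3 weeks, the diets overlapped, with 0.446 to 1.02 CPM in CD and 0.307 to 0.719 CPM in HF+SD mice, and the log2 fold change was -0.32 (SE 0.35, adjusted p = 0.578). The change at 6 weeks minus that at 3 weeks was -1.25 (SE 0.44, adjusted p = 0.115), so the difference between times did not pass.

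Scg3 (ENSMUSG00000032181.8, secretogranin III, chromosome 9), a granin that helps to sort cargo into granules, was lower at both times. After 6 weeks, it had 68.0, 96.2, 59.7 and 61.9 CPM in M22, M43, M45 and M48, and 43.8, 39.5, 39.2 and 38.0 CPM in M5, M18, M34 and M35. After 3 weeks, it had 66.2, 59.9, 72.1 and 67.1 CPM in M53, M54, M55 and M96, and 41.9, 45.9, 45.8 and 46.5 CPM in M7, M19y, M20y and M31. The diets did not overlap at either time. Its log2 fold change was -0.83 (SE 0.17, adjusted p = 0.00917) at 6 weeks and -0.56 (SE 0.08, adjusted p = 0.00168) at 3 weeks, and it passed at both times without any 1 of the mice.

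Chgb (ENSMUSG00000027350.9, chromogranin B, chromosome 2), a matrix protein of dense-core granules, differed by diet at 3 weeks. It had 50.5, 44.8, 58.9 and 52.8 CPM on the CD and 36.7, 34.7, 36.9 and 37.5 CPM on the HF+SD, with a log2 fold change of -0.51 (SE 0.09, adjusted p = 0.00534). After 6 weeks, the CD mice had 31.1, 51.7, 21.9 and 24.1 CPM and the HF+SD mice 24.4, 23.4, 23.8 and 17.9 CPM. These overlapped, and the log2 fold change of -0.53 (SE 0.26, adjusted p = 0.183) did not pass.

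Scg2 (ENSMUSG00000050711.8, secretogranin II, chromosome 1), precursor of the peptide secretoneurin, showed the same course. After 3 weeks, it had 545, 438, 579 and 577 CPM on the CD and 349, 309, 315 and 344 CPM on the HF+SD, and the fold change was -0.70 on the log2 scale (SE 0.10, adjusted p = 0.00227). After 6 weeks, the CD mice ran from 182 to 922 CPM, the latter in M43, and the HF+SD mice from 116 in M35 to 368 in M5. The groups overlapped, the log2 fold change was -0.52 (SE 0.55, adjusted p = 0.533), and without M43 it was 0.24.

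Chga (ENSMUSG00000021194.7, chromogranin A, chromosome 12), a granule protein that parathyroid cells store along with parathyroid hormone, had a wide spread between mice of each group. After 6 weeks, it had 2182, 826, 451 and 249 CPM on the CD and 723, 147, 125 and 102 CPM on the HF+SD. After 3 weeks, it had 2178, 82.3, 688 and 1009 CPM on the CD and 514, 37.4, 922 and 1029.5 CPM on the HF+SD. The diets overlapped at both times, with log2 fold changes of -1.76 (SE 0.81, adjusted p = 0.152) and -0.66 (SE 0.95, adjusted p = 0.673), and neither passed. Leaving out M5 gave -2.89 (adjusted p = 0.0346) at 6 weeks, and leaving out M53 gave 0.07 at 3 weeks.

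Chga varied with parathyroid markers. Over the 16 libraries, each centred on its group mean, its log2 CPM correlated most with Rhcg (Pearson's r = 0.988), Gcm2 (0.986), Sycp2l (0.986), Pcyt1b (0.984) and Gm48510 (0.977) among 17023 genes, and at 0.910 with Pth. These are descriptions over points that share library and depth. Gcm2 is the lineage factor of the parathyroid. In M54 and M19y, where Pth was at 20.3 and 2.10 CPM and Gcm2 at 0.423 and 0.0768, Chga had its lowest levels. Calca in the same mice, 2697 and 2238 CPM, was the lowest of the 4 CD mice and, with 2235 in M20y, one of the lower pair of HF+SD mice.

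**Figure D2:**
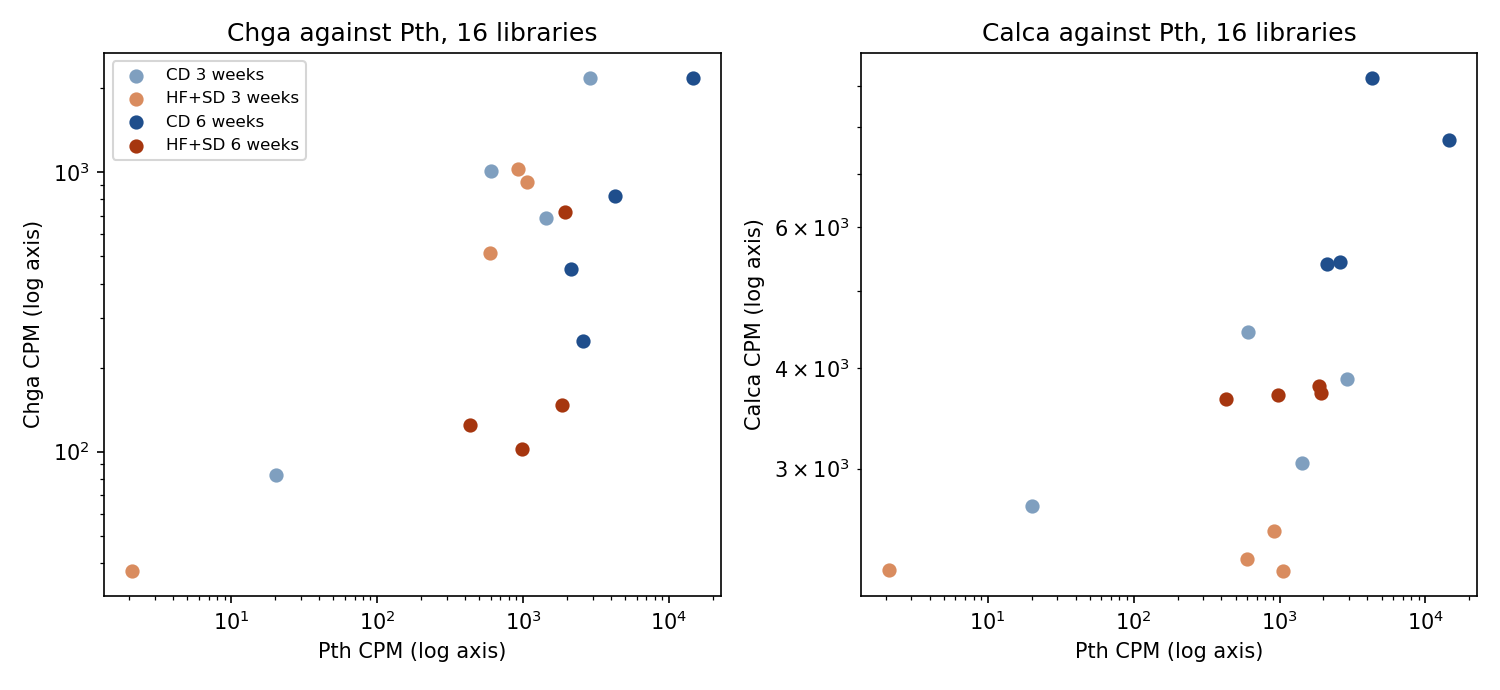
CPM of Chga (left) and Calca (right) against CPM of Pth in the 16 libraries, all axes logarithmic, 1 point per mouse and colours for the 4 groups. Chga is at 82.3 and 37.4 CPM in the pair of mice with the least Pth, and Calca spans a narrower range in every group.

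With the log2 CPM of Pth and Gcm2 as a covariate, an alternative chosen after seeing the data, the log2 fold change of Chga was 0.29 at 6 weeks and 0.01 at 3 weeks. At 3 weeks the same 6 genes were lower and Ret higher in that fit. At 6 weeks only Calcb still passed (-1.14, adjusted p = 0.0383), with Calca at -0.64 (adjusted p = 0.165), Scg3 at -0.69 (0.0599), Pcsk2 at -0.65 (0.112) and Pcsk1 at -0.65 (0.280). Over all genes, 10.7% passed lower in this fit at 6 weeks, and 3.99% lower and 8.10% higher at 3 weeks. Both genes of this covariate had lower means on the HF+SD at 6 weeks, though neither passed. Pth was at -2.18 (adjusted p = 0.0527) and Gcm2 at -2.07 (adjusted p = 0.0973). The covariate and the diet are therefore partly the same contrast there.

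Pcsk1 (ENSMUSG00000021587.6, chromosome 13) and Pcsk2 (ENSMUSG00000027419.10, chromosome 2) encode the convertases PC1/3 and PC2, which cut prohormones in the granule. After 6 weeks, Pcsk2 had 133, 191, 105 and 114 CPM on the CD and 80.9, 79.4, 73.4 and 66.6 CPM on the HF+SD. At 3 weeks it had 161, 156, 192 and 181 CPM on the CD and 120, 108, 113 and 120 CPM on the HF+SD. The diets did not overlap at either time, with log2 fold changes of -0.85 (SE 0.20, adjusted p = 0.0166) and -0.58 (SE 0.09, adjusted p = 0.00231). At 6 weeks the call was lost without M34 or M35 (adjusted p up to 0.0557). Pcsk2 overlaps the antisense genes Pcsk2os1 and Pcsk2os2, and its level is uncertain to that extent, as no strand setting of the counting was given in the sources used here.

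Pcsk1 had 55.8, 107, 43.9 and 45.9 CPM on the CD and 39.8, 34.4, 32.7 and 23.9 CPM on the HF+SD after 6 weeks. At 3 weeks the CPM were 50.8, 49.1, 63.4 and 52.4 on the CD and 38.7, 34.9, 34.4 and 36.0 CPM on the HF+SD. No HF+SD mouse reached a CD mouse at either time. The log2 fold change was -0.95 (SE 0.29, adjusted p = 0.0479) at 6 weeks and -0.58 (SE 0.09, adjusted p = 0.00352) at 3 weeks. The call at 6 weeks was lost without M43, M48 or any 1 HF+SD mouse (log2 fold changes of -1.10 to -0.60, adjusted p up to 0.119). It was also lost with the muscle score as a covariate (-1.04, adjusted p = 0.106) and with no filter beyond 1 count (-0.94, adjusted p = 0.0522).

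Ret (ENSMUSG00000030110.14, chromosome 6) was the one gene of the 9 with a positive fold change under TMM, which turned negative with thyrocyte genes as a geometric mean scale. After 3 weeks, it had 72.8, 93.8, 98.6 and 79.9 CPM on the CD and 104, 129.9, 110.4 and 135 CPM on the HF+SD. All HF+SD mice were above all CD mice, and the log2 fold change was 0.47 (SE 0.12, adjusted p = 0.0281). Without M53, M96 or any of M19y, M20y and M31 the call was lost (adjusted p up to 0.0855). After 6 weeks, it had 51.1, 41.2, 31.5 and 32.6 CPM on the CD and 41.5, 62.1, 59.5 and 65.8 CPM on the HF+SD. M5 lay within the CD range, and the log2 fold change of 0.55 (SE 0.20, adjusted p = 0.0796) did not pass. It passed without M22 or without M5, and it was 0.21 with the muscle score as a covariate and 0.12 without M43, M45 and M48. The last value rests on M22 as the only CD mouse of 6 weeks, in a fit of the remaining 13 libraries that takes its spread from the other groups.

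**Figure D3:**
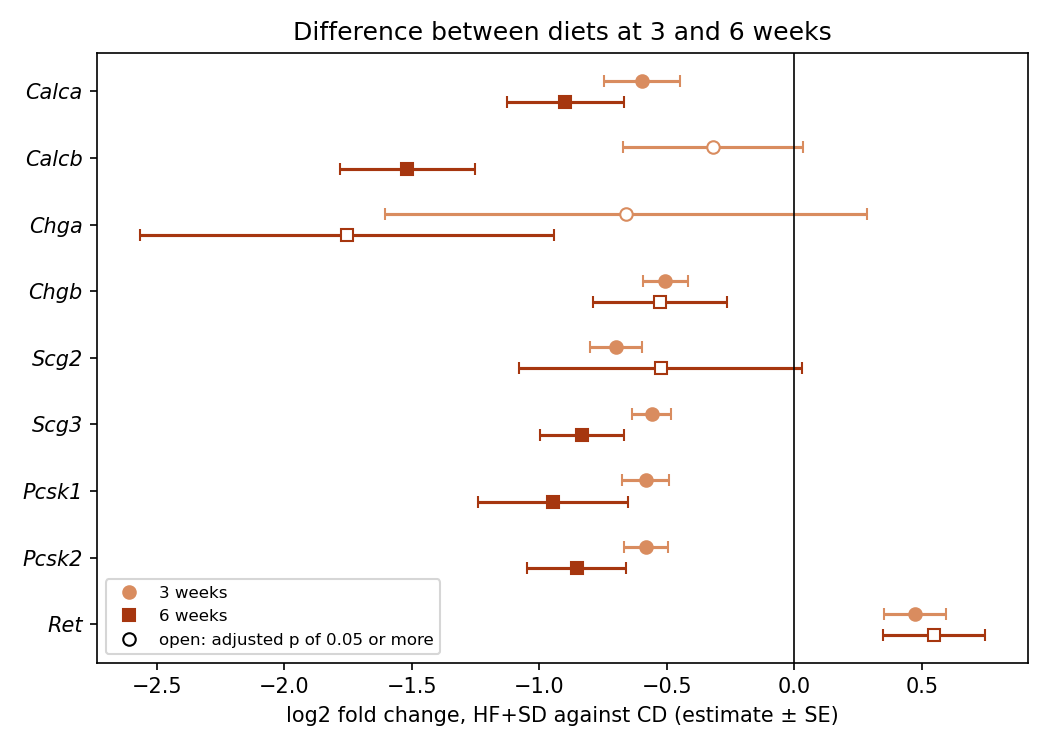
log2 fold change of HF+SD against CD (± SE) of the 9 genes at 3 weeks (circles) and 6 weeks (squares), with filled symbols for an adjusted p under 0.05. The 6 lower genes of 3 weeks lie between -0.70 and -0.51, Chga has the widest errors, and Ret lies at 0.47 and 0.55 under TMM, negative only on the geometric mean thyrocyte scale.

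The change at 6 weeks was set against that at 3 weeks by the interaction term over all 16 libraries, which 15 of 18929 genes passed (0.0792%). Of the 9 genes, 0 passed by edgeR and 0 by DESeq2, and 1, Calcb, had an unadjusted p under 0.05 (0.0124). The remaining 8 differences ran from -1.14 for Chga to 0.15 for Scg2, with adjusted p of 0.263 or more. Calca differed by -0.35 (SE 0.25) and Ret by 0.03 (SE 0.24).

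The genes were then expressed per count of Calca in the same library. Scg3 per 1000 Calca counts was 8.82 to 11.4 in CD mice and 10.3 to 11.8 in HF+SD mice after 6 weeks, and 15.1 to 23.7 and 18.1 to 20.5 after 3 weeks, overlapping at both times. Ret had 6.62, 4.47, 5.82 and 6.00 counts per 1000 Calca counts on the CD and 11.1, 16.3, 16.2 and 17.8 on the HF+SD after 6 weeks. At 3 weeks it had 18.8, 34.8, 32.4 and 17.97 on the CD and 44.97, 58.0, 49.4 and 53.7 on the HF+SD. Ret per Calca did not overlap between diets at either time, on a scale on which Calca itself fell and 58.9% of all genes at 6 weeks and 42.2% at 3 weeks passed as higher. Calcb per 10000 Calca counts was 1.86 to 2.41 in CD mice and 1.03 to 1.56 in HF+SD mice after 6 weeks, without overlap, and overlapped after 3 weeks. In the fit with libraries scaled to Calca counts, Calcb was at -0.63 at 6 weeks and did not pass. The share of all genes without overlap per Calca count was not computed.

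**Figure D4:**
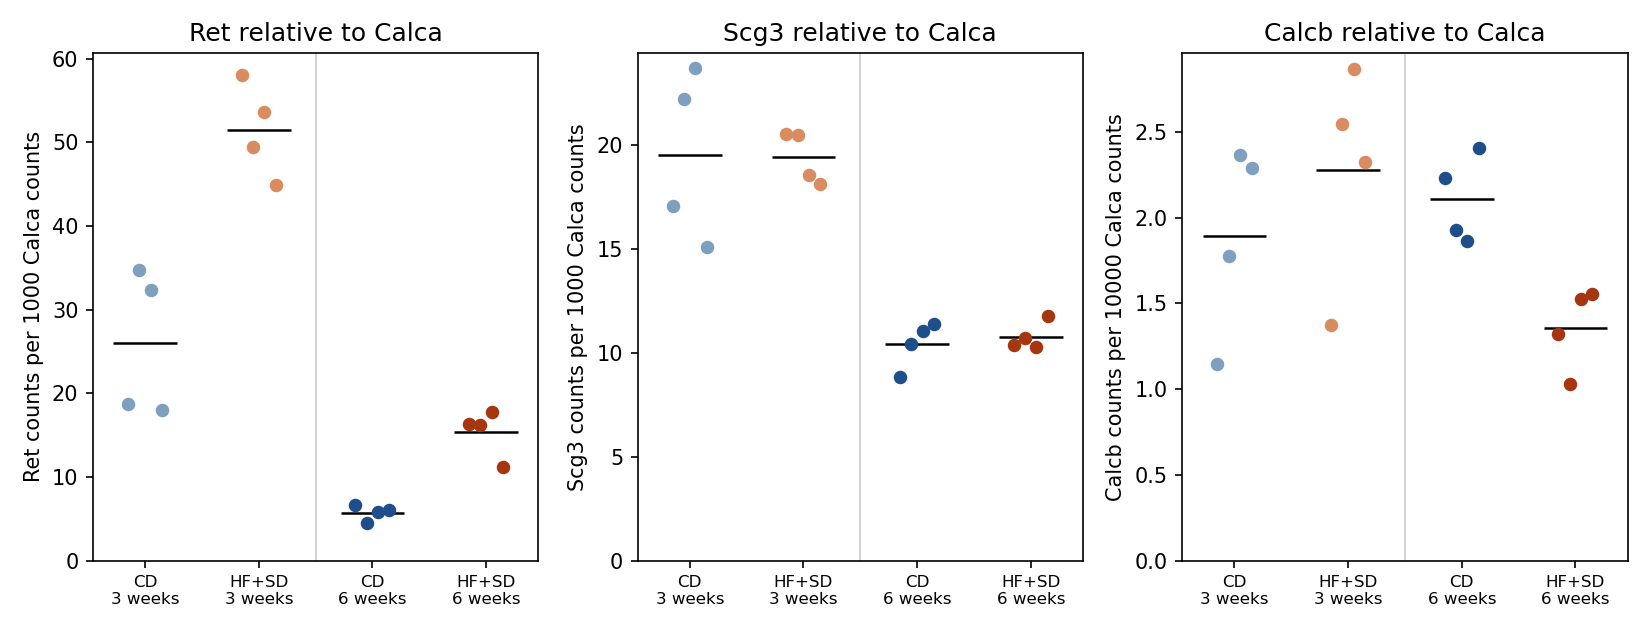
Counts of Ret and Scg3 per 1000 counts of Calca, and of Calcb per 10000, in each mouse, with a line at the group mean of 4 mice. Ret per Calca does not overlap between diets at either time, and Scg3 per Calca overlaps at both.

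With libraries scaled to Calca counts, a setting chosen after seeing the data, Scg3, Pcsk1, Pcsk2 and Chgb had log2 fold changes of -0.01, -0.04, -0.03 and 0.05 at 3 weeks and 0.05, -0.01, 0.04 and 0.41 at 6 weeks. Of the 8 other genes only Ret passed, at 0.99 (SE 0.24, adjusted p = 0.00137) and 1.42 (SE 0.21, adjusted p = 0.000509). On that scale 42.2% of all genes passed as higher at 3 weeks and 58.9% at 6 weeks, and the median of all genes was 0.54 and 0.83, so a higher Ret is not particular to it. The direction of Ret depended on the scaling. With the geometric mean of thyrocyte genes as the scale, Ret was -0.34 at 3 weeks and -0.71 at 6 weeks and the median of all genes -0.82 and -1.30. Relative to that median Ret remained on the positive side, and Calca was lower than it, at -1.44 and -2.16.

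**Figure D5:**
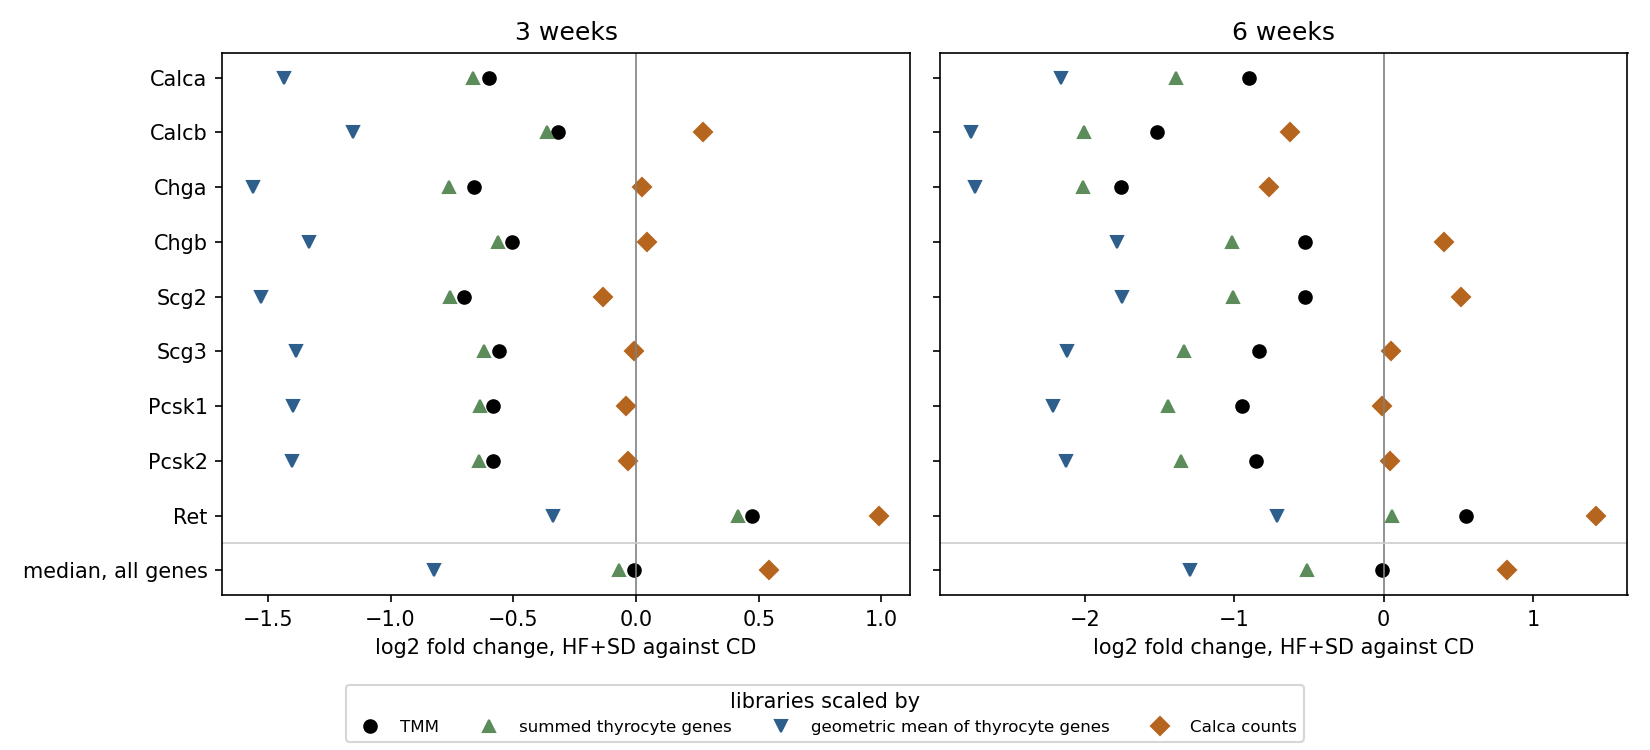
log2 fold change of HF+SD against CD of the 9 genes and the median of all genes, at 3 weeks (left) and 6 weeks (right), with libraries scaled by TMM, by thyrocyte genes (summed or as a geometric mean) or by Calca counts. Ret lies right of the median of all genes on all 4 scales at both times, and Calca lies left of it on the 3 scales that do not use it.

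Per kilobase of exon, Calca was the highest and Calcb the lowest of the 9 genes in all 4 groups, at 4124 ± 1109 and 1.15 ± 0.289 CPM per kilobase on the CD at 6 weeks (SD, n = 4). Chga and Scg2 came next after Calca, with 336 ± 316 and 162 ± 139 CPM per kilobase in that group, and did not differ beyond their spread. Scg3 followed at 26.1 ± 6.16 and Pcsk2 at 17.2 ± 4.92. Chgb at 11.7 ± 4.96 and Pcsk1 at 11.3 ± 5.26 did not differ beyond their spread, and Ret was below both at 5.78 ± 1.35.

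Over the 16 libraries pooled, Chgb, Scg2, Scg3, Pcsk1 and Pcsk2 rose and fell together around their group means, though not within every group. Their log2 CPM, centred on group means, had Pearson's r of 0.841 (Scg2 with Scg3) to 0.974 (Chgb with Pcsk2) over 16 libraries, as a description of points that share a library and its depth. M43 was the highest CD mouse of 6 weeks for all 5. In the HF+SD mice of 3 weeks, M7 was lowest for Scg3 (41.9 CPM) but highest for Scg2 (349 CPM) and Pcsk1 (38.7 CPM). With Chgb, r was 0.934 for Scg3, 0.974 for Pcsk2, 0.951 for Scg2 and 0.965 for Pcsk1. A link between these values and the promoter motifs was not tested. Calca followed them less closely, at 0.573 to 0.704, and Ret did not, at 0.07 to 0.22. The genes most like Calca by this measure were Pnoc (0.900), Shroom4 (0.900), Zfp287 (0.870), Tubb1 (0.866) and Hmgb3 (0.866) of 17023 compared. Pnoc encodes the precursor of the neuropeptide nociceptin.

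Among 11 further granin and prohormone processing genes tested, 3 were higher and 1 lower at 6 weeks, and 2 higher and 1 lower at 3 weeks. Beside this and the lists that follow, 12.0% of all genes passed higher and 9.55% lower at 6 weeks. At 3 weeks these shares were 9.07% and 5.78%. Scg5, which encodes the PC2 chaperone 7B2, rose from 178 ± 56.0 to 430 ± 27.9 CPM at 6 weeks (SD, n = 4; log2 fold change 1.27, adjusted p = 0.00513) and by 0.33 (adjusted p = 0.0244) at 3 weeks, opposite in sign to Pcsk2. Cpe, the carboxypeptidase that trims basic residues off prohormones, was lower at 6 weeks (-1.18, adjusted p = 0.0248), where the muscle-rich M43, M45 and M48 had 82.7, 170.2 and 119 CPM, M22 had 52.8 CPM and the HF+SD mice had 45.5 to 48.5 CPM. The constitutive convertases Furin (0.84) and Pcsk7 (0.57) were higher at 6 weeks. At 3 weeks Pcsk1n, which encodes the PC1/3 inhibitor proSAAS, fell (-0.52, adjusted p = 0.0214) and Cpd, a carboxypeptidase of the trans-Golgi, rose (0.35). The median of the list was 0.08 at 6 weeks and -0.17 at 3 weeks.

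Of 29 regulated exocytosis genes tested, 5 were lower and 2 higher at 6 weeks, and 6 lower at 3 weeks, with medians of -0.29 and -0.33. The all-gene shares were 9.55% lower and 12.0% higher at 6 weeks, and 5.78% lower at 3 weeks. Resp18, a protein of endocrine granules, fell from 45.2 ± 8.99 to 21.3 ± 1.16 CPM at 6 weeks and from 30.6 ± 2.50 to 19.3 ± 1.09 CPM at 3 weeks (SD, n = 4; log2 fold changes -1.08 and -0.67, adjusted p = 0.00169 and 0.00121). Snap25, a SNARE protein of vesicle fusion, fell by 1.16 and 0.60. Rab3b fell by 1.08 at 6 weeks, and Rab3d and Ptprn2, the granule protein phogrin, fell by 0.59 and 0.61 at 3 weeks. Rph3a passed as higher at 6 weeks from very few reads, with 0, 0, 0 and 4 counts in the CD mice and 62, 17, 32 and 43 in the HF+SD mice. These lists too hold genes that neurons and parathyroid cells express.

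Of the neuroendocrine identity and monoamine genes, 2 of 20 tested were higher and 6 lower at 6 weeks, and 1 of 19 higher and 5 lower at 3 weeks, with medians of -0.42 and -0.45. Slc18a1, the vesicular monoamine transporter VMAT1 that loads serotonin into granules, rose from 3.84 ± 0.696 to 7.46 ± 0.610 CPM at 6 weeks and from 4.54 ± 0.633 to 7.20 ± 0.678 CPM at 3 weeks (SD, n = 4; log2 fold changes 0.95 and 0.67, adjusted p = 0.00683 and 0.0119). The transcription factor genes Insm1 and Foxa2 fell at both times, by 0.78 and 0.75 at 6 weeks and by 0.73 and 0.60 at 3 weeks. Nkx2-2, also a transcription factor gene, went the other way. It passed as higher at 6 weeks (1.07, adjusted p = 0.0254) and did not pass at 3 weeks (0.38, adjusted p = 0.177). Myt1 fell by 0.93 at 6 weeks, and Glp1r, the GLP-1 receptor gene of rodent C cells, fell by 1.17 at 3 weeks.

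Of 7 RET ligand and co-receptor genes tested, 2 were lower at 6 weeks and 1 at 3 weeks, at a median of -0.26 and -0.16. Gfra4 went the other way from Ret, with 31.1 ± 6.18 and 20.5 ± 3.65 CPM at 6 weeks (SD, n = 4; log2 fold change -0.60, adjusted p = 0.0462), and with -0.26 (adjusted p = 0.0886) at 3 weeks, which did not pass. Gfra1, the GDNF co-receptor, was lower at 6 weeks (-1.41, adjusted p = 0.0241), where its highest levels of 1.94 to 3.67 CPM were those of the muscle-rich mice M43, M45 and M48. Gfra2 (-0.07 at 6 weeks) and Gfra3 (-0.26 and 0.25) passed at neither time. At 3 weeks Artn, a ligand of GFRA3, fell by 1.08 (adjusted p = 0.0230).

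Genes for the receptor complexes of calcitonin family peptides were also counted. The calcitonin receptor gene Calcr has no row in the count table. Ramp3, an accessory protein of the complex, rose from 5.06 ± 1.99 to 31.6 ± 2.23 CPM at 6 weeks and from 9.81 ± 2.28 to 22.1 ± 3.69 CPM at 3 weeks (SD, n = 4; log2 fold changes 2.64 and 1.18, adjusted p = 0.000331 and 0.00311). Calcrl, the receptor for CGRP and adrenomedullin, and Ramp2 rose at 6 weeks by 0.95 and 0.89 (adjusted p = 0.00672 and 0.0169) and did not pass at 3 weeks (0.20 and 0.39). Ramp1 fell by 4.31 at 6 weeks, where its CD levels of 61.7 ± 61.9 CPM spread with the muscle-rich libraries, and was 0.28 (adjusted p = 0.605) at 3 weeks. Of 7 endothelial genes, a cell type known to express Calcrl and Ramp2, 7 were higher at 6 weeks and 6 at 3 weeks, their summed level running from 298 to 371 CPM on the CD and 1013 to 1112 CPM on the HF+SD at 6 weeks. The part of these cells in the receptor values was not tested.

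Lists of other cells moved beside the 9 genes as follows, where 9.55% of all genes passed lower and 12.0% higher at 6 weeks, and 5.78% and 9.07% at 3 weeks. Thyrocyte genes were higher in 6 of 12 at both times, with summed levels of 67944 to 102093 CPM on the CD and 99897 to 143226 CPM on the HF+SD at 6 weeks, overlapping. Of 7 peripheral neuron genes tested, 1 was higher and 3 lower at 6 weeks and 1 higher and 1 lower at 3 weeks, their sum at 30.6 to 44.6 and 23.2 to 32.7 CPM at 6 weeks, and Th and Dbh have no row. Of 8 Schwann cell genes, 2 were lower at 6 weeks and 1 at 3 weeks. Of 17 skeletal muscle genes tested at 6 weeks 16 were lower, and of 16 at 3 weeks 2 were higher. Of 6 adipocyte genes, 5 were lower at each time. Of 9 airway genes, 3 were higher at 6 weeks and 1 at 3 weeks, and of 3 thymus genes 1 was lower at 6 weeks. Of 6 parathyroid genes, 2 were lower at 6 weeks (Tbx1 and Gata3), and at 3 weeks the smallest adjusted p was 0.482 (Tbx1). The part of these cells in the values of Calca, Scg3, Pcsk1, Pcsk2 and Ret at 6 weeks was not tested beyond the covariates given.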

How the data were processed

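Whole thyroids of 16 male mice were sequenced as poly(A) RNA in read pairs of 150 bases, 1 library per mouse. The authors deposited raw counts per gene for 21640 genes, with no normalization, and a normalized signal, in which each count is divided by the size factor of its library. The submitters' processing notes name Trim Galore 0.6.7, STAR, DESeq2 1.36.0, R 4.1.0 and the mm39 build, while the annotation, the counter and its strand setting were not given in the sources used here. Gene identifiers were matched without version to symbols, which worked for 20841, and coordinates and sequences are of GRCm38 (GENCODE M21 and RefSeq), a different build.

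The counts were tested here with edgeR 4.0.16 in R 4.3.3 (TMM, filterByExpr, glmQLFit, glmQLFTest), HF+SD against CD within a time point, with Benjamini-Hochberg adjustment over all tested genes and a call at an adjusted p under 0.05. The SE is the absolute log2 fold change divided by the square root of F. log2 CPM used a prior count of 2. The difference between times was the interaction over 16 libraries. Single genes were also compared by an exact permutation test. Between mice of a group the chi-square of the counts was at least 16.4 per gene, so no library was a repeat of another of its group. Libraries of different groups were not compared in this way. The scripts were tested on simulated data.

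The 9 genes and the related lists were chosen with earlier results of these data known. All 9 are named, with at most the 4 lowest p of each related list and time point, any receptor or co-receptor of Calca or Ret, and the 5 genes most correlated with Calca. The 5 most like Chga were added after its values were seen. Lists are described by counts and medians with no set test. Of 189 list entries, 171 were in the table. Alternatives were DESeq2 1.42.0, DESeq2 or upper-quartile factors, other count filters, limma 3.58.1 on log2 of the deposited signal plus 1, 1 fit of all libraries, thyrocyte scalings, a muscle covariate, a log2 fold change minimum of 1, and each mouse left out. Some single genes of the lists are not reported here. The study's text counts fewer CD mice at 6 weeks than carry that label, without naming them, so a library used here may be one that the study left out. Every labelled mouse entered the fits, and the closing section gives the values without single mice.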

Additional observations from a re-analysis of the deposited data

Results flagged for a closer look

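Among 36 groups of 4 mice (9 genes in 4 groups), 3 held a mouse far from the other mice of its group by Dixon's test, the ratio of gap to range, and chance flags about 1 in 20 groups. Chga was at 723 CPM in M5, against 102 to 147 CPM in the other HF+SD mice of 6 weeks, with a ratio of 0.927, and M5 also had the most Gcm2 of that group (18.7 CPM). Chgb was at 17.9 CPM in M35, below 23.4 to 24.4 CPM in the same group, with a ratio of 0.853, and Scg2 was lowest in M35 too. Scg3 was at 41.9 CPM in M7, below 45.8 to 46.5 CPM in the other HF+SD mice of 3 weeks, with a ratio of 0.846.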

How the results depend on the processing

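No paired analysis was possible because the replicate numbers were given here in accession order and pair no mice. The count of the 9 genes that passed was compared with 5 lower and 0 higher at 6 weeks, and 6 lower and 1 higher at 3 weeks. Other size factors, DESeq2, both count filters and limma gave 4 or 5 lower and 0 higher at 6 weeks, and 6 and 1 at 3 weeks. These settings called 6.81% to 14.2% of all genes lower and 10.4% to 14.1% higher at 6 weeks. At 3 weeks the shares were 4.50% to 9.69% and 6.97% to 11.8%. The muscle covariate gave 4 lower at 6 weeks, beside 4.13% of all genes. Leaving out M43, M45 and M48 left M22 as the only CD mouse. It was assumed to vary like the other groups of a joint fit of 13 libraries, so no count is given for that fit. The summed thyrocyte scale gave 6 lower at 6 weeks, with 32.2% of all genes lower. In 1 fit of all 16 libraries, which shares 1 spread between times (biological coefficient of variation 31.2% at 6 weeks and 18.2% at 3 weeks on their own), 6 were lower and 1 (Ret) higher at 6 weeks, and 2 (Scg3 and Pcsk2) lower and 0 higher at 3 weeks. That fit called 18.2% of all genes lower and 14.5% higher at 6 weeks, and 2.38% and 5.12% at 3 weeks. With a log2 fold change minimum of 1, 1 was lower at 6 weeks (Calcb) and 0 at 3 weeks in either direction, and glmTreat gave 0 at both. The minimum left 6.01% of all genes lower at 6 weeks, and glmTreat 0.630%. Leaving out each mouse gave 2 to 5 lower and 0 to 1 higher at 6 weeks, and 5 to 6 lower and 0 to 1 higher at 3 weeks. The lowest count, 2, came without M34 or M35, and 3 remained without M18. Over all genes, leaving out each mouse gave 2.99% to 14.9% lower and 7.36% to 15.9% higher at 6 weeks. At 3 weeks it gave 2.63% to 7.88% and 5.64% to 11.5%. Without M5 or M22, Ret was the 1 higher gene at 6 weeks. Ret was lost at 3 weeks, leaving 0 higher, without M53, M96, M19y, M20y or M31.

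The next 3 settings were chosen after seeing the data. Scaled to Calca counts, where 58.9% and 42.2% of all genes were higher at 6 and 3 weeks, 0 were lower at both times and Ret was the 1 higher gene, and signs turned for Chgb (0.41), Scg2 (0.52), Scg3 (0.048) and Pcsk2 (0.042) at 6 weeks and for Calcb (0.27), Chga (0.024) and Chgb (0.046) at 3 weeks, which follows from taking Calca as the scale. With the parathyroid score as a covariate, 1 was lower at 6 weeks beside 10.7% of all genes, and signs turned for Chga (0.29 at 6 weeks, 0.0064 at 3 weeks) and Scg2 (0.083 at 6 weeks). Scaled to the geometric mean of thyrocyte genes, 9 were lower at 6 weeks and 7 lower and 0 higher at 3 weeks, while 83.7% and 76.5% of all genes were lower, with Ret at -0.71 and -0.34. Among the leave-one-out settings, Scg2 at 6 weeks ran from -0.77 to 0.24 (the latter without M43) and Chga at 3 weeks from -1.05 to 0.074 (the latter without M53).

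For the difference between times, the summed thyrocyte scale gave 1 gene (Calcb) lower and turned Scg2 (-0.25) and Ret (-0.36). Without single mice it ran from -0.19 to 0.24 for Chgb, from -0.073 to 0.89 for Scg2 and from -0.047 to 0.20 for Ret. Over all genes it depended strongly on the setting, with 15 genes by edgeR, 1820 by DESeq2 and 2715 without M22, while 0 of the 9 passed in these. Beside 3927, the all-gene counts of 6 weeks included 1934 without M34, 6182 in 1 fit of all libraries and 6725 on the summed thyrocyte scale, with 2006 under the muscle covariate, 5157 by DESeq2 and 5743 without M22. Beside 2560, those of 3 weeks included 1420 in 1 fit of all libraries and 3701 by DESeq2. Except where stated, the cause was not tested.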

Other observations

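Pnoc, Shroom4, Zfp287, Tubb1 and Hmgb3, the genes most like Calca between mice, were picked from 17023 genes for that likeness, and their r of 0.866 to 0.900 over 16 libraries is a description. Among the 9 genes themselves, Pcsk2 stood nearest to Calca (r = 0.704), at place 254 of all genes compared, and Ret farthest, at place 5960.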
